A study of Mus musculus with 12 samples.

Results

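The genes described here drive and time cell division: the mitotic kinases and their switches, the cofactors of the anaphase-promoting complex (APC/C), and the proteins of the central spindle and of cytokinesis. They were chosen by name, with earlier results of these data known. There are 32 genes in all, and all 32 were measured, out of 23102 genes on the arrays. Each gene was given, per array, the median log2 intensity of those exon probesets that carry its symbol alone, between 7 probesets for Ube2c and Pkmyt1 and 40 for Ckap5. Bora was listed on the platform under an older symbol.

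The series holds 12 oral tumours of C57BL/6 × FVB F1 mice, each read on 1 mouse exon array (Affymetrix). In 6 of them, from mice written KR, the tumour expressed RAS. The other 6, from mice written KHR, expressed RAS with a transgene written iHPV, and a further label names HPV E6, a protein of human papillomavirus that targets p53. All 12 tumours came from animals given tamoxifen by intraperitoneal injection, so the control tumours carry RAS and the drug as well. Which promoter drives either transgene, in which cells, and how old the mice were and of which sex is not given in the sources used here. The labels do not tie the tumours of a group to separate mice, so a p-value reflects the spread among these tumours, which could be partly technical.

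Entry into mitosis is driven by cyclin B bound to the kinase CDK1, which is held off by WEE1 and PKMYT1 and released by the CDC25 phosphatases. Polo-like and Aurora kinases then build the spindle, and the APC/C with its cofactor CDC20 marks cyclin B and securin for destruction, which starts anaphase. PRC1, the centralspindlin subunit RACGAP1, ECT2 and anillin set the cleavage furrow, and CEP55 leads the final cut. Most of these genes are transcribed in G2 and mitosis, through CCAAT boxes bound by NF-Y and through the cell cycle homology region (CHR) bound by the DREAM and MuvB complexes. In a tissue their level therefore tracks how many cells are dividing. In bulk RNA, more dividing cells and more of each transcript per dividing cell cannot be told apart.

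The arrays were even: the median log2 intensity of all probesets lay between 5.62 and 5.75. Epithelial keratins were high on every array, with Krt5 between 13.04 and 13.38 and Krt14 between 12.87 and 13.32, and neither passed the test between groups. The list of 15 stratified epithelium genes averaged 11.40 to 11.72 on KR arrays and 11.13 to 11.60 on KHR arrays. Of its log2 changes, KHR minus KR, 4 were above 0, with a median of -0.03 and a lowest of -1.74. Only 1 of these genes passed, the oral keratin gene Krt13, which was lower in KHR tumours (-1.26), with the groups meeting at 12.27. The change of -1.74 belonged to a gene other than Krt13. All KHR arrays lay below all KR arrays for 1 gene of the list, which was not Krt13 and did not pass. Xist, which coats the inactive X and so marks female tissue, was high (11.04 to 12.45) on 2 KR arrays (4 and 6) and 4 KHR arrays (3, 4, 5 and 6), and low (3.81 to 4.73) on the rest. Marker lists of other cells differed in how many changes were above 0 and in how many genes passed. Over all genes, 2.71% passed as higher and 1.03% as lower, and 51% of changes were above 0. The mean of 30 skeletal muscle genes ran from 5.55 to 6.90 on KR arrays and from 5.54 to 8.05 on KHR arrays, highest on KHR 5, with 27 of 30 changes above 0 and none past the test. Of 10 macrophage genes all 10 changes were above 0 and 1 passed (list mean 5.56 to 6.49 in KR, 6.12 to 6.89 in KHR). Of 9 neutrophil genes all 9 were above 0 and 2 passed (6.19 to 7.00 and 6.88 to 7.38). The list means differed by 0.53 for muscle, 0.44 for macrophage and 0.59 for neutrophil genes. None of 6 T cell genes passed, nor of 5 B and plasma cell genes or 6 endothelial genes. In each of these lists, 3 changes were above 0. Of 10 fibroblast genes, 5 had a change above 0 and 1 was lower (list mean 8.01 to 9.34 in KR, 8.28 to 9.01 in KHR).

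To show the kind of promoter these genes have, the 250 bases before the annotated start are printed for the members with the smallest p-values that have an entry (Ccnb2, Mastl and Nusap1) and for Cdk1, which was added after its values were seen. All are from RefSeq, build GRCm38.p6, and run 5′ to 3′ on the strand of the gene. Ccnb2 lies at chr9:70421555-70421804 (minus strand), Mastl at chr2:23156025-23156274 (minus), Nusap1 at chr2:119618048-119618297 (plus) and Cdk1 at chr10:69352913-69353162 (minus). Capitals mark 3 kinds of motif, searched on both strands. The CCAAT box appears as ATTGG where it lies on the other strand. The CHR core was searched as TTTGAA and in a second form, spelled TTTAAA. The E2F-like heptamers searched were TTCGCGC, a second form spelled TTTGGCG and a further form spelled TTTCCCG.
Ccnb2: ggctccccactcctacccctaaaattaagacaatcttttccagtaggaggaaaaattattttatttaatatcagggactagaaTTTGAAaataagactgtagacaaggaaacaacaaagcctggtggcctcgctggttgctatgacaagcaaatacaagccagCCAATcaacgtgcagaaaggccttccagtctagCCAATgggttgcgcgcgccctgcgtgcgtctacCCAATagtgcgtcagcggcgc
Cdk1: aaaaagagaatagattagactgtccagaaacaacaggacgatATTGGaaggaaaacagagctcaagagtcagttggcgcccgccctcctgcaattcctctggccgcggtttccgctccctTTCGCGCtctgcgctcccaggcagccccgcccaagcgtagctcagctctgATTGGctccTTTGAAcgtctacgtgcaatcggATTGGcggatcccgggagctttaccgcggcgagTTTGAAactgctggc
Mastl: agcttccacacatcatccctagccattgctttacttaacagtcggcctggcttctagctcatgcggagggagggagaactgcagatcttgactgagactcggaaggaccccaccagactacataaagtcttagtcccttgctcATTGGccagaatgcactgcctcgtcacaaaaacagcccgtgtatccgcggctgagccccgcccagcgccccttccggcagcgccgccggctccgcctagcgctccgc
Nusap1: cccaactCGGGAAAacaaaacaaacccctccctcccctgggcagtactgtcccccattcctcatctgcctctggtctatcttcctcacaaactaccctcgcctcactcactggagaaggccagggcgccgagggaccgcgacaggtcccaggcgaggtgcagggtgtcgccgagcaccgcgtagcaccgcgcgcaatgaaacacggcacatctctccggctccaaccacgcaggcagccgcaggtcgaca

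The promoter of Ccnb2 holds 3 CCAAT boxes whose starts are 33 bases apart from each to the next, at 87, 54 and 21 bases before the start of the gene, and 2 CHR cores, one at 167 bases before the start and the other beginning 5 bases after it, outside the stretch printed. That of Cdk1 holds 3 CCAAT boxes, 2 CHR cores, of which the nearer begins 15 bases before the start, and an E2F-like heptamer at 130 bases. Mastl has 1 CCAAT box and no CHR core in this window, and Nusap1 has neither. Over whole windows, from 250 bases before to 50 after a start, 25 of the 32 members have an entry, with 28 windows in all because some have several starts. Aurkb, Bora, Cdc25c, Incenp, Pkmyt1, Tpx2 and Wee1 have none. A CCAAT box was found in 21 of the 28 windows (75%), against 37.4% of 32851 windows of all genes. The CHR core TTTGAA was found in 21 (75%, against 17.9%) and TTTAAA in 4 (14.3%, against 13.2%). Both a CCAAT box and either CHR core were present in 18 (64.3%, against 10.7%), and an E2F-like heptamer in 5 (17.9%, against 6.23%). These shares describe the windows, in which windows of 1 gene can overlap. Of the 16 members with an entry that were called higher, 12 held a CCAAT box, 12 the core TTTGAA, 1 the core TTTAAA and 4 an E2F-like heptamer. Of the 9 that were not called, 7 held a CCAAT box, 6 the core TTTGAA, 3 the core TTTAAA and 1 an E2F-like heptamer. These splits were not tested.

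All 32 members had a higher mean in KHR than in KR tumours. Of them, 18 passed the test and none was lower (limma over all genes, Benjamini-Hochberg adjusted p under 0.05), while 3.74% of all genes passed in either direction. The median change of the members was 0.56 on the log2 scale, which is the unit of every change below, KHR minus KR. Over all 23102 genes, 2.71% were called higher and 1.03% lower, the median change was 0.00, and 51% of changes were above 0. For 16 members, or 50%, all KHR arrays lay above all KR arrays, against 1.83% of all genes. Changes ran from 0.05 for the securin gene Pttg1 to 0.97 for the spindle gene Hmmr, so even the largest was just under a doubling. Which genes stood at the ends depended on the summary of probesets. With the mean in place of the median, Hmmr changed by 0.67 and Nusap1 by 0.92, and Pttg1 by 0.22 and Espl1 by 0.20. The counts of calls over all genes depended on single arrays and on scaling. They were 863 with all arrays, 531 without KR 2 and 523 without KHR 4, and 72.4% of calls were higher as deposited against 56.8% after quantile normalization. Among the members, 14 passed in every fit that left out 1 array: Ccnb2, Cdk1, Mastl, Aurka, Tpx2, Hmmr, Aurkb, Ube2c, Nusap1, Ckap2, Anln, Racgap1, Top2a and Mki67. All 32 had a KR mean above the median level of all genes (4.98), which is not a background level, and Pkmyt1 lay below it on 3 KR arrays.

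**Figure D1:**
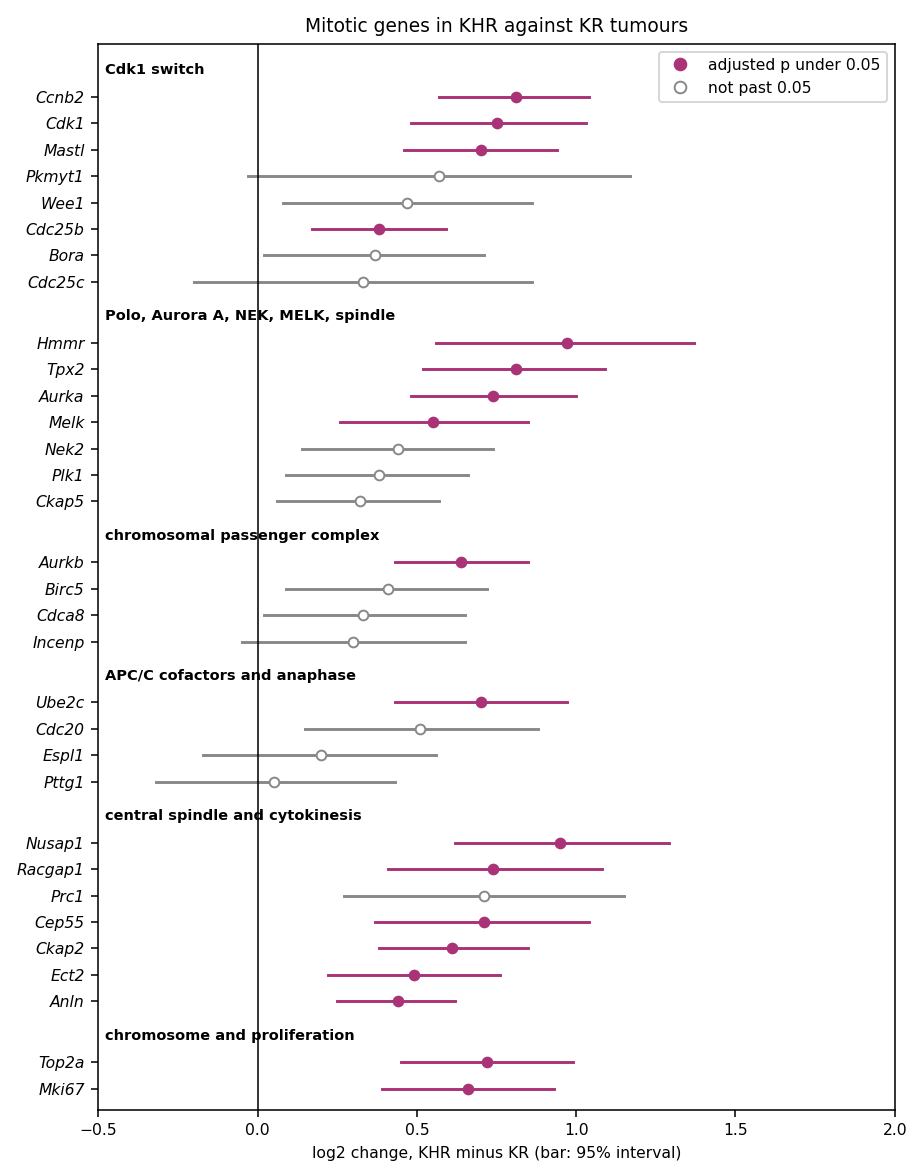
The log2 change of each of the 32 genes, KHR minus KR, by role; points are differences between group means of 6 arrays, bars are 95% intervals, and filled points have an adjusted p under 0.05. Every point lies above 0, and 18 are filled.

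The cyclin B gene Ccnb2 and the kinase gene Cdk1 both rose. Ccnb2, a B-type cyclin, had KR values from 8.55 to 8.96 (median 8.83) and KHR values from 9.31 to 9.89 (median 9.58). The groups did not overlap, and the lowest KHR array stood well clear of the highest KR array. The change was 0.81 ± 0.11 (SE, n = 6 each; adjusted p = 0.00125), the smallest p among the members. Cdk1, the kinase of mitotic entry, ran from 9.28 to 10.02 (median 9.62) in KR and from 10.09 to 10.69 (median 10.40) in KHR tumours, again without overlap, with KR 5 the nearest KR array. It rose by 0.75 ± 0.13 (adjusted p = 0.00515), and by 0.46 with the mean over its probesets (adjusted p = 0.0144). Ccnb1, the other main B-type cyclin gene, had no probeset that carries its symbol alone, so it was not measured here.

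The genes that throttle or release CDK1 were less uniform. Mastl, the Greatwall kinase that shields CDK1 substrates from phosphatase PP2A, went from 7.68 to 8.10 (median 7.96) in KR to 8.41 to 9.0 (median 8.57) in KHR tumours. It rose by 0.70 ± 0.11 (adjusted p = 0.00308), with KHR 5 highest. Cdc25b, a phosphatase that activates CDK1, rose by less, 0.38 ± 0.10 (adjusted p = 0.048). Its KR values (9.05 to 9.46, median 9.28) and KHR values (9.50 to 9.90, median 9.65) just failed to meet, and the call fell away when any of 11 arrays was omitted (all but KHR 2; adjusted p up to 0.105), as well as after quantile normalization (0.33, adjusted p = 0.0865). Its relative Cdc25c differed by 0.33 ± 0.25 (adjusted p = 0.58; 95% interval -0.20 to 0.86) and was scattered in both groups, from 5.91 to 7.57 in KR (median 6.76) and 6.66 to 7.69 in KHR tumours (median 7.09). Wee1, which inhibits CDK1, differed by 0.47 ± 0.18 (adjusted p = 0.2), with KR values of 8.33 to 9.21 (median 8.71) overlapping KHR values of 8.81 to 9.64 (median 9.23). Pkmyt1, the second inhibitory kinase, differed by 0.57 ± 0.28 (adjusted p = 0.346). By the median over its probesets, its KR arrays lay in 2 sets, KR 1, 3 and 6 at 5.83 to 6.17 and KR 2, 4 and 5 at 4.68 to 4.81. KHR arrays ran from 5.36 to 6.42. Of its 7 probesets, with levels from 4.42 to 8.26, 3 were dimmer than the median level of all genes. Bora, the Aurora A cofactor that switches on PLK1, differed by 0.37 ± 0.16 (adjusted p = 0.278). Thus 4 of the 8 genes of the CDK1 switch rose with the median over probesets, and both inhibitory kinases had a change above 0 that did not pass. With the mean over probesets, Pkmyt1 (0.59 ± 0.14, adjusted p = 0.0237) and Bora (0.47, adjusted p = 0.0248) passed as well. Wee1 (0.43, adjusted p = 0.0603) and Cdc25c (0.44, adjusted p = 0.0578) did not. With median polish Cdc25c passed (0.44, adjusted p = 0.0258) and Cdc25b did not (0.22, adjusted p = 0.262).

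Among the spindle kinases and their partners, 4 of 7 rose. Aurka, the centrosomal Aurora kinase, was tight in KR tumours, from 7.36 to 7.67 (median 7.63), and ran from 7.94 to 8.65 (median 8.34) in KHR tumours. The change was 0.74 ± 0.12 (adjusted p = 0.00401) with no overlap. Tpx2, which activates Aurora A on spindle microtubules, had KR values of 7.80 to 8.57 (median 8.06) and KHR values of 8.63 to 9.20 (median 8.90). It rose by 0.81 ± 0.13 (adjusted p = 0.004), and KR 4 came close to the lowest KHR array. Hmmr, which encodes a microtubule-binding protein that helps to place TPX2, had the largest change, 0.97 ± 0.19 (adjusted p = 0.0111), from 5.98 to 6.89 (median 6.54) in KR to 7.04 to 7.99 (median 7.42) in KHR tumours. Melk, a kinase gene often used as a proliferation marker, rose by 0.55 ± 0.14 (adjusted p = 0.041), from 6.40 to 7.14 (median 7.01) to 7.22 to 7.81 (median 7.46). Melk lost its call without any of 9 arrays (KR 2, 3, 4 or 6, or KHR 1, 2, 3, 4 or 6; adjusted p up to 0.0923) and after quantile normalization (0.46, adjusted p = 0.0887).

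Plk1, the Polo-like kinase, did not pass although it sits beside these genes in the pathway. Its KR values were 9.17 to 9.81 (median 9.32) and its KHR values 9.45 to 10.04 (median 9.86), a difference of 0.38 ± 0.13 (adjusted p = 0.152; 95% interval 0.09 to 0.66). KR 1 was high at 9.81 and KHR 4 and 5 were low at 9.51 and 9.45, so the groups overlapped. With the mean over its probesets in place of the median the difference was 0.47 and passed (adjusted p = 0.0233). Nek2, a centrosome-splitting kinase, differed by 0.44 ± 0.14 (adjusted p = 0.111), with KHR 5 highest at 8.05. It passed with the mean over probesets (0.45, adjusted p = 0.0354). Ckap5, a microtubule polymerase, differed by 0.32 ± 0.12 (adjusted p = 0.188), from 8.77 to 9.35 in KR and 9.08 to 9.58 in KHR tumours.

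**Figure D2:**
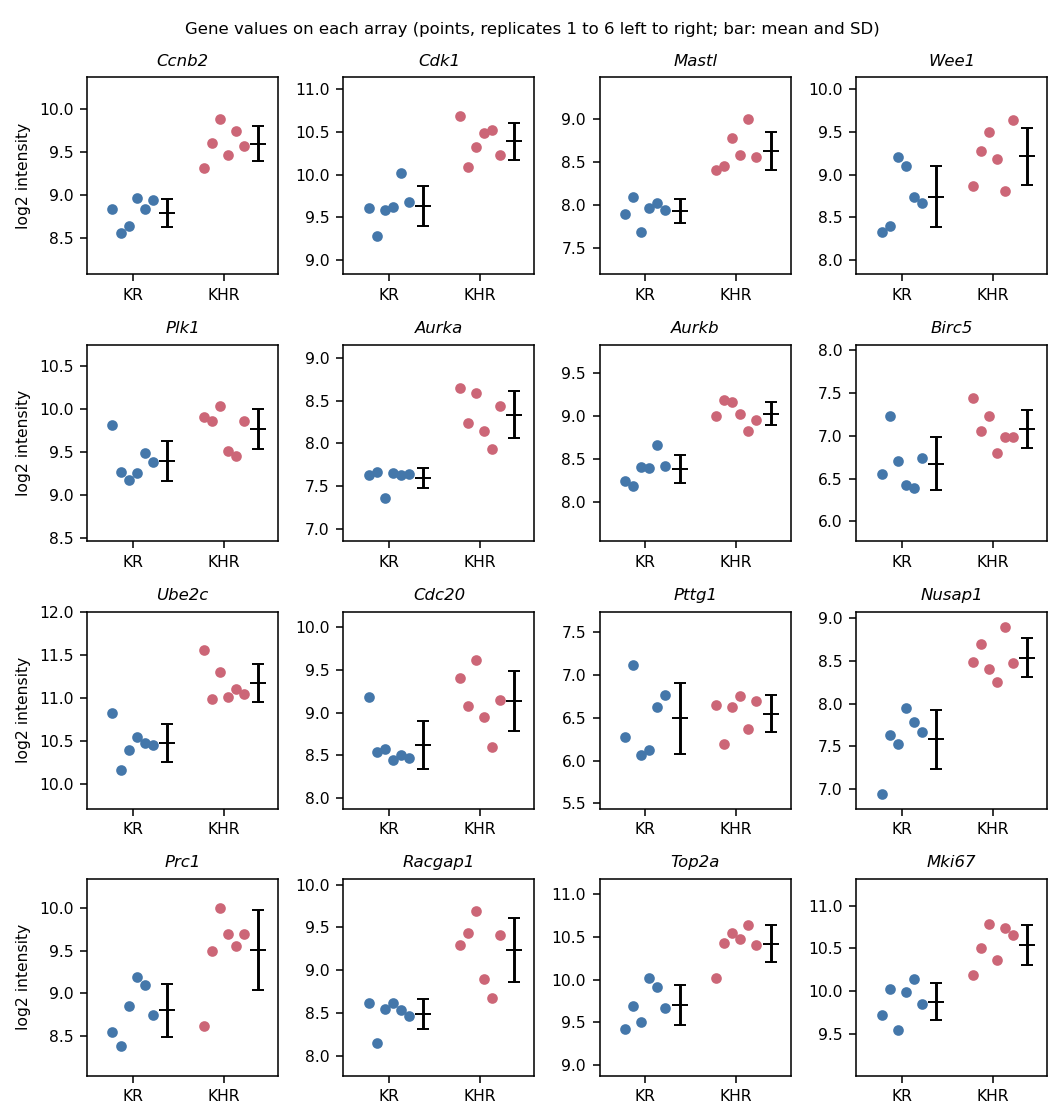
Log2 intensity of 16 members on each of the 12 arrays; points are arrays (replicates 1 to 6 from left to right), and the bar beside them is the mean and SD of the 6. Each panel spans the same height on the log2 axis, so that the gap of Ccnb2, Aurka, Aurkb and Nusap1 can be set against the overlap of Plk1, Wee1, Birc5 and Pttg1.

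In the chromosomal passenger complex, the kinase gene passed and the genes of its partners did not. Aurkb, which corrects faulty attachments and drives cytokinesis, ran from 8.18 to 8.66 (median 8.39) in KR and from 8.83 to 9.19 (median 9.01) in KHR tumours. It rose by 0.64 ± 0.10 (adjusted p = 0.00225), without overlap. Birc5, which encodes survivin, the subunit that brings the complex to centromeres, differed by 0.41 ± 0.15 (adjusted p = 0.165; 95% interval 0.09 to 0.72). KR 2 lay apart at 7.23, within the KHR values of 6.80 to 7.44, while the other KR arrays lay at or below 6.74. Birc5 passed without KR 2 (0.52, adjusted p = 0.044). Cdca8, which encodes borealin, differed by 0.33 ± 0.15 (adjusted p = 0.278), and Incenp, the scaffold, by 0.30 ± 0.16 (adjusted p = 0.405; 95% interval -0.05 to 0.65). Cdca8 passed with the mean over probesets (0.46, adjusted p = 0.0128) and Incenp did not (0.36, adjusted p = 0.0982). The difference in change between Aurkb and its partners was not tested.

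The genes of anaphase onset divided in the same way. Ube2c, the ubiquitin-conjugating enzyme that starts chains on APC/C substrates, ran from 10.16 to 10.83 (median 10.46) in KR and from 10.99 to 11.56 (median 11.08) in KHR tumours. It rose by 0.70 ± 0.13 (adjusted p = 0.00672). Cdc20, the mitotic activator of the APC/C, differed by 0.51 ± 0.17 (adjusted p = 0.124; 95% interval 0.15 to 0.88). Of its KR arrays 5 lay between 8.45 and 8.57 and KR 1 at 9.18, and of its KHR arrays KHR 5 was lowest at 8.60 and KHR 3 highest at 9.61. Cdc20 passed without KR 1 (0.62, adjusted p = 0.0457), without KHR 5 (0.62, adjusted p = 0.0473), with the mean over probesets (0.56, adjusted p = 0.00753) and with the muscle list as a covariate (0.69, adjusted p = 0.0143). The separase gene Espl1, whose product cuts cohesin, differed by 0.20 ± 0.17 (adjusted p = 0.647). Pttg1, which encodes securin, the inhibitor of separase, had the smallest difference of all members, 0.05 ± 0.17 (adjusted p = 0.934; 95% interval -0.32 to 0.43), and the sign of its difference turned after quantile normalization (-0.04). Its KR values of 6.06 to 7.12 (median 6.45) enclosed its KHR values of 6.19 to 6.75 (median 6.64).

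Most genes of the central spindle and of cytokinesis rose, 6 of 7. Nusap1, which bundles spindle microtubules near chromosomes, had KR values of 6.95 to 7.95 (median 7.65) and KHR values of 8.25 to 8.90 (median 8.48). Its change of 0.95 ± 0.16 (adjusted p = 0.00399) was the second largest among the members. Racgap1, a subunit of centralspindlin, rose by 0.74 ± 0.16 (adjusted p = 0.0176), from 8.15 to 8.62 (median 8.55) to 8.68 to 9.69 (median 9.36). KHR 4 and 5 were the low KHR arrays, at 8.90 and 8.68, as they were for Plk1. Ect2, the exchange factor that centralspindlin brings to the midzone to activate RhoA, rose by 0.49 ± 0.13 (adjusted p = 0.0441), from 9.08 to 9.58 in KR to 9.48 to 10.17 in KHR tumours, with overlap. Its call was lost without any of 9 arrays (all but KR 4, KHR 1 and KHR 2; adjusted p up to 0.099) and with the Xist level (0.43, adjusted p = 0.105) or the muscle list (0.44, adjusted p = 0.115) as a covariate.

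Anln, which encodes anillin, a scaffold of the contractile ring, was among the tightest genes in both groups. It ran from 9.31 to 9.72 (median 9.54) in KR and from 9.86 to 10.13 (median 9.95) in KHR tumours, a rise of 0.44 ± 0.09 (adjusted p = 0.0129). Ckap2, which stabilises spindle microtubules, rose by 0.61 ± 0.11 (adjusted p = 0.00687), from 7.41 to 7.99 to 8.06 to 8.53. Cep55, which recruits the abscission machinery to the midbody, rose by 0.71 ± 0.16 (adjusted p = 0.0224), from 6.58 to 7.31 (median 6.95) to 7.09 to 7.96 (median 7.80), with KHR 1 the only KHR array inside the KR range. That call was lost without KR 2, KHR 3, KHR 4 or KHR 6 (adjusted p up to 0.0568) and with the muscle list as a covariate (0.64, adjusted p = 0.0635).

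Prc1, the microtubule bundler of the midzone, did not pass with all arrays. Of its KHR arrays 5 lay between 9.50 and 10.00, above all KR arrays (8.38 to 9.19), and KHR 1 lay at 8.62. The difference was 0.71 ± 0.20 (adjusted p = 0.0794), and without KHR 1 it was 0.88 (adjusted p = 0.00546). It also passed with the mean over probesets (0.54, adjusted p = 0.0158). KHR 1 was the lowest of all 12 arrays in the muscle list mean (5.54), and with that mean as a covariate the difference of Prc1 was 0.56 (adjusted p = 0.196).

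The last pair mark proliferating cells in general. Top2a, the topoisomerase that untangles sister chromatids, ran from 9.42 to 10.02 (median 9.68) in KR and from 10.02 to 10.64 (median 10.45) in KHR tumours, with KHR 1 and KR 4 meeting at 10.02 and the other arrays apart. It rose by 0.72 ± 0.13 (adjusted p = 0.00634). Mki67, which encodes the Ki-67 antigen, a coat of mitotic chromosomes, rose by 0.66 ± 0.13 (adjusted p = 0.00998), from 9.55 to 10.14 (median 9.92) to 10.19 to 10.78 (median 10.59).

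Averaged over the 32 members, KR arrays lay between 8.01 and 8.15 (mean 8.08 ± 0.06, SD, n = 6) and KHR arrays between 8.51 and 8.83 (8.63 ± 0.11). No test is given for this mean, since the members were chosen with earlier results of these data known. KHR 3 had the highest member mean and was the highest of all 12 arrays for 15 members. KHR 5 was the highest for 8 and KHR 1 for 5. KHR 1 was also the lowest KHR array for 11 members, among them Ccnb2, Prc1, Cep55 and Top2a, while it was the highest for Cdk1, Aurka, Birc5, Cdca8 and Ube2c. KHR 5 was likewise mixed, lowest among KHR arrays for 7 members and highest for 8. In KR tumours the low values were shared out, with KR 2 lowest for 8 members and KR 1 and KR 3 for 7 each. The SDs of single members in KR tumours ran from 0.12 (Aurka) to 0.69 (Pkmyt1).

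**Figure D3:**
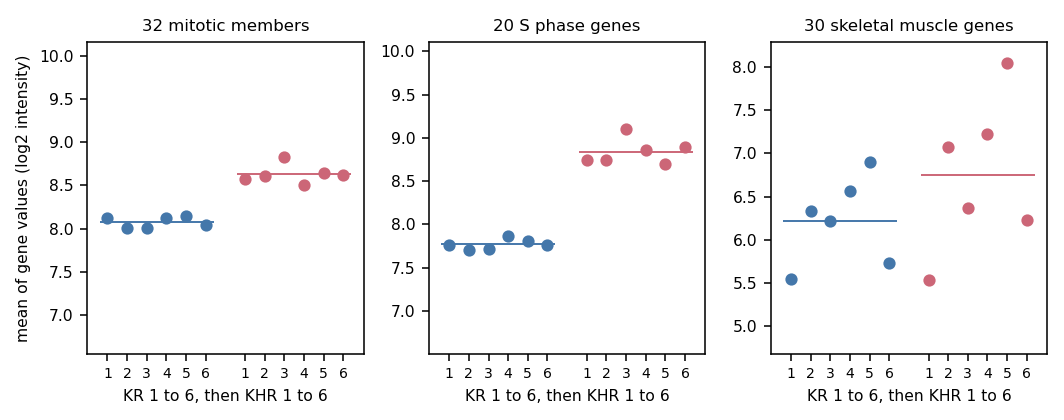
The mean log2 intensity of the 32 members, of 20 S phase genes and of 30 skeletal muscle genes on each array; points are arrays, lines are group means, and the panels span the same height. Member and S phase means of KHR arrays lie above those of all KR arrays, while the muscle means overlap and are highest on KHR 5 at 8.05.

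The fit was repeated with the Xist level or the mean of the muscle list as a covariate. With Xist 16 members passed, all of them among the 18. Cdc25b did not pass there at 0.40 (adjusted p = 0.0689), nor Ect2 at 0.43 (adjusted p = 0.105). With the muscle list 15 passed, 14 of them among the 18, and Cdc20 was gained. Of the 4 that no longer passed, Cdc25b and Melk had changes of 0.40 and 0.57 (0.38 and 0.55 without the covariate), and Cep55 and Ect2 had 0.64 and 0.44 (0.71 and 0.49 without it). Aurka and Racgap1 changed by 0.86 and 0.87 there, and Hmmr by 0.84. The part of the macrophage and neutrophil lists in these changes was not tested.

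Within a gene, most exon probesets moved together. The 32 members have 522 probesets with their symbol alone, of which 469 (89.8%) had a change above 0, against 50.6% of all 269751 probesets. Tested as single probesets, with adjustment over all of them, 52 (9.96%) were higher and none was lower, against 0.616% higher and 0.267% lower over the table, and 19 members had at least 1 such probeset. That count moved with the arrays, from 12 without KHR 3 to 58 without KHR 1. It was 30 without KR 1, 16 without KR 2, 18 without KR 3, 33 without KR 5, 24 without KR 6, 32 without KHR 2, 24 without KHR 4, 30 without KHR 5 and 20 without KHR 6. Tpx2 had 7 called probesets of 22, Nusap1 6 of 13, Top2a 6 of 32 and Mastl 5 of 16. Probesets of a gene read the same RNA and are no replicates of each other.

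All 16 probesets of Mki67, all 24 of Anln, all 20 of Melk, all 13 of Nusap1, all 12 of Plk1 and all 12 of Cdc20 had a change above 0. Plk1 and Cdc20, which did not pass as genes, had probeset changes of 0.17 to 0.78 and 0.08 to 0.85. In Espl1 and Pttg1 the probesets went both ways: 20 of 27 were above 0 in Espl1, from -0.87 to 1.34, and 9 of 13 in Pttg1, from -0.74 to 0.93. For Pttg1 the median of the probesets' own changes was 0.34, while the change of the median value was 0.05, and median polish, which fits probeset and array effects jointly, gave 0.33 (adjusted p = 0.127). Ckap5, with 40 probesets, had 31 above 0, a median of 0.19 and no called probeset. Cdk1 had 2 probesets of 9 below 0, and the lowest, at -0.51, was among the 2 that were dimmer than the median level of all genes.

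**Figure D4:**
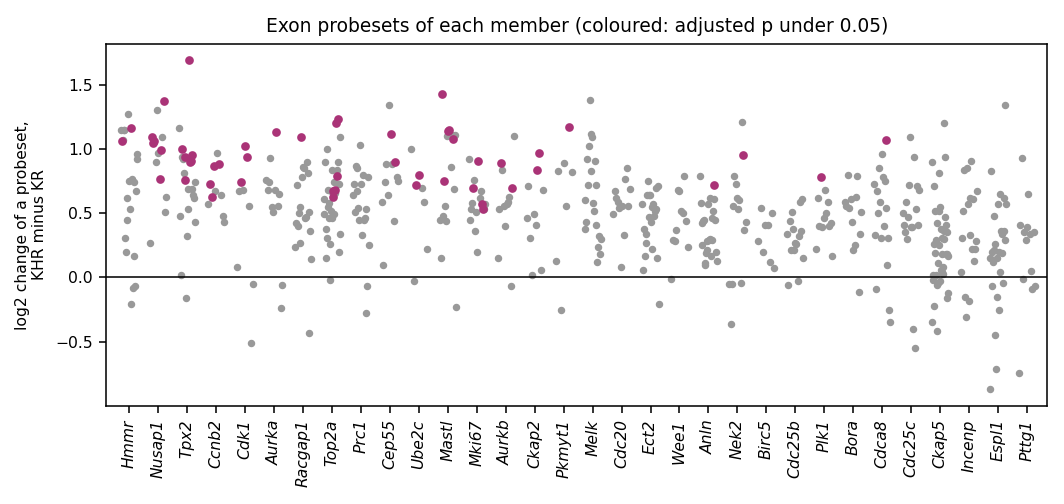
The log2 change, KHR minus KR, of each exon probeset of the 32 members, ordered by the change of the gene value; each point is a probeset, and coloured points have an adjusted p under 0.05 over all probesets. In all, 469 of 522 points lie above 0, and Espl1 and Pttg1 hold the lowest.

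Other genes of the same machinery, 75 measured in 5 lists, gave 18 higher and none lower, with a median change of 0.33. Of 9 factors that transcribe G2 and mitosis genes, 4 rose: the MuvB subunits Lin9 (0.97 ± 0.20, adjusted p = 0.0142) and Lin54 (0.55 ± 0.10, adjusted p = 0.0071), which binds the CHR, the forkhead factor Foxm1 (0.70 ± 0.18, adjusted p = 0.0468), and the NF-Y subunit Nfyc, past the test by little (0.55 ± 0.14, adjusted p = 0.0492). Mybl2, the B-MYB gene, differed by 0.44 ± 0.27 (adjusted p = 0.478). Of 19 other mitotic cyclins and kinases, 7 rose. They were led by Cks1b, a CDK-binding subunit (0.73 ± 0.10, adjusted p = 0.00119, from 2 probesets), and by the checkpoint kinase genes Ttk (0.99 ± 0.15) and Bub1 (0.90 ± 0.17, adjusted p = 0.00998).

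Of 17 other APC/C subunits and regulators, 2 rose and 15 had a change above 0, with a median of 0.35, against 0.36 for the 4 members of the cofactor and anaphase group. Those that rose were Ube2s, the enzyme that lengthens the chains begun by UBE2C (0.63 ± 0.12, adjusted p = 0.009), and the subunit gene Cdc27 (0.43 ± 0.09, adjusted p = 0.0199). Anapc16 differed by 0.43 ± 0.12 (adjusted p = 0.0726), and Fzr1, the G1 activator, by -0.02 ± 0.12 (adjusted p = 0.965). Among 11 genes of Greatwall substrates and mitotic phosphatases none passed, with a median change of 0.03. The catalytic subunit genes of PP2A, Ppp2ca and Ppp2cb, differed by -0.36 ± 0.12 and 0.25 ± 0.11 (adjusted p = 0.135 and 0.299), and Ppp1cb by 0.26 ± 0.17 (adjusted p = 0.529). Of 19 other genes of cytokinesis and abscission, 5 rose, including the kinesins Kif4 (0.98 ± 0.18), Kif20a (0.52 ± 0.10) and Kif14 (0.70 ± 0.14, adjusted p = 0.012). Those of general membrane scission in that list did not pass, such as Tsg101 (0.01 ± 0.14, adjusted p = 0.988) and Chmp4b (-0.25 ± 0.17, adjusted p = 0.542). Both were singled out after their values were seen.

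**Figure D5:**
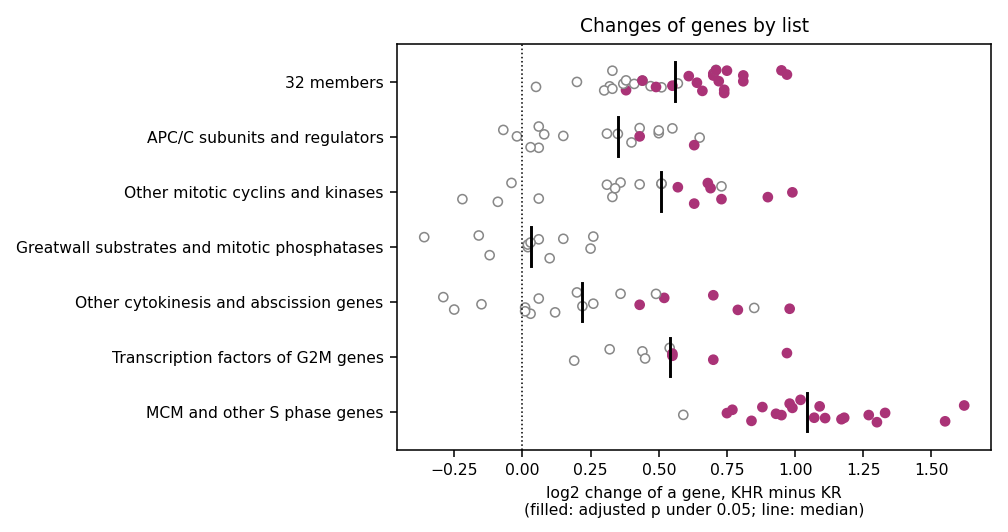
The log2 change of each gene, KHR minus KR, in the 32 members, 5 lists of other mitotic genes and 20 S phase genes; each point is a gene, filled where the adjusted p was under 0.05, and lines are medians. Medians run from 0.03 for the phosphatase list to 1.05 for the S phase list.

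Genes of DNA replication are given for comparison. Of 20 S phase genes, 19 rose, with a median change of 1.05 and all KHR arrays above all KR arrays for 18, against 18 of 32, a median of 0.56 and 16 for the mitotic members. The largest change of a member (0.97) lay below the median of the S phase genes. Prim1, the primase subunit, rose by 1.62 ± 0.09 (adjusted p = 3.4e-07), and the helicase genes Mcm6 and Mcm4 rose by 1.30 ± 0.10 and 1.11 ± 0.10. The S phase mean lay between 7.70 and 7.87 on KR arrays and between 8.70 and 9.10 on KHR arrays, and KHR 3 was highest in both lists. This comparison is a description: both lists were chosen with earlier results known, and their difference was not tested.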

How the data were processed

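Total RNA of 12 oral tumours (6 KR, 6 KHR, from the labels) was read on exon arrays. The deposited table holds log2 intensities for 269751 probesets on each array. The submitters' processing notes give Partek, with no version. How background was corrected, how arrays were normalized and which build was used is not given in the sources used here; that the scale is log2 was judged from the range of values. Gene names of probesets came from the platform table of GEO (233753 with 1 symbol, 5106 with several, 30892 with none). Of the symbols, 20875 were current in RefSeq GRCm38.p6, 2247 were updated through a synonym and 30 were kept. A gene's value was the median over its probesets with 1 symbol, with no filter on dim genes. Level differences between genes are not read, since probes differ in brightness.

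Genes were tested with limma 3.58.1 (lmFit, eBayes) in R 4.3.3, two-sided, on all 12 arrays without covariates, with Benjamini-Hochberg adjustment over 23102 genes and a threshold of 0.05. Intervals are 95% intervals of the moderated fit, unadjusted. On simulated data of this comparison and 23102 genes, 39 of 100 genes changed by 0.5 and 86 of 100 changed by 1 were recovered, with 10 false calls. The number of arrays limits the precision. Members and lists were chosen with earlier results of these data known. All 32 members were described, together with the 3 genes of smallest p in each other list. Lin, Nfy and Mybl2 genes beyond those, Fzr1 and Krt13 were named after their values were seen. Upstream stretches were planned for the 4 members with the smallest p and for Wee1; Aurkb and Wee1 have no entry. Degrons in proteins were not analysed here. Alternatives were other summaries of probesets, scalings, filters, priors, array weights, a replicate block, covariates, a threshold of 0.01 and leaving out each array. Python 3.11.15, pandas 2.3.3 and matplotlib 3.10.9 made tables and figures.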

Additional observations from a re-analysis of the deposited data

Results flagged for a closer look

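In 64 sets of 6 values (32 members in 2 groups), 6 single values stood apart from the rest of their set by Dixon's ratio, above its critical value of 0.625. Chance flags about 1 in 20 such sets. For Aurka, KR 3 was low at 7.36, below the other KR arrays at 7.63 to 7.67. For Melk, KR 6 was low at 6.40 (others 6.88 to 7.14). For Racgap1, KR 2 was low at 8.15 (others 8.47 to 8.62). For Cdc20, KR 1 was high at 9.18 (others 8.45 to 8.57). In KHR tumours, KHR 1 was low for Prc1, at 8.62 (others 9.50 to 10.00), and for Top2a, at 10.02 (others 10.41 to 10.64). Of these genes, Cdc20 passed without KR 1 and Prc1 without KHR 1, and Aurka, Racgap1 and Top2a passed with and without the array named. Melk passed with KR 6 and not without it (0.45, adjusted p = 0.0568).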

How the results depend on the processing

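The count of 18 members higher in KHR tumours stayed within 1.5 times of itself under every alternative at the same threshold (14 to 25; 14 to 17 on leaving out arrays, lowest without KHR 3, KHR 4 or KHR 6), and 11 passed at an adjusted p under 0.01. It was highest with the mean over probesets (25, all 18 among them) and with median polish (24, 17 among them). No member was called lower in any fit. Genes differing overall numbered 1445 with the mean over probesets, 555 with the Xist covariate, 312 at the stricter threshold and 523 to 1085 on leaving out arrays. Other mitotic genes higher numbered 28, 11 and 6 under those 3 settings, against 18, and 12 to 22 on leaving out arrays. Member probesets higher fell from 52 to 22 with the Xist covariate, 17 with the muscle covariate and 2 at the stricter threshold, and ran from 12 to 58 on leaving out arrays. Pttg1 turned sign with quantile normalization (-0.04) and without KR 3 (-0.03) or KR 4 (-0.02), and reached 0.18 without KR 2. Of 736 refits of single members, 660 kept the direction and side of the threshold, 50 lost a call, 23 gained one and 3 turned. With the replicate number as a block 16 members passed, 15 of them among the 18, and 14 member probesets. The numbers pair nothing in the labels. Deviations of same-numbered arrays correlated between -0.003 and 0.234, and 3 of 12 arrays correlated best with their own number. These correlations cannot decide whether same-numbered arrays were handled together. With no detection call, how far signal exceeded background is not known.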
